A study of Mus musculus with 8 samples.

Results

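The 6 smooth muscle type contractile genes Acta2, Tagln, Cnn1, Mylk, Myh11 and Cald1 were followed across cultured mouse primary myoblasts, dividing muscle precursors derived from satellite cells. They were taken by name: each has exactly 1 probe set annotated with its symbol alone, so all 6 of 6 were measured, among 19938 genes in all. Their levels were read in every array, and the arrays numbered 2 and 3 were set beside those numbered 1 and 4 within each label.

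The series asked which genes need Runx1, a transcription factor, when muscle begins to regenerate. It holds 8 Affymetrix MoGene 1.0 ST arrays, 4 labelled WT and 4 labelled Runx1f/f, each with biological replicates 1 to 4. Both groups are on the C57bl/6 background, and satellite cells were isolated from the gastrocnemius of animals 2 to 3 weeks old and kept in proliferation medium on Matrigel. Runx1f/f names a floxed allele, which the treatment label equates with KO. The sources used here do not give a Cre driver, the deleted part of Runx1 or whether animals were pooled.

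The array columns do not allow the labelled genotypes to be compared. In every row, averaging Runx1f/f 1 with 2, Runx1f/f 3 with 4, or the 4 WT columns gave the same value to within 7.5e-05 on the log2 scale, so a genotype difference of 0 is built into the values. With limma, 0 of 19938 genes (0%) passed an adjusted p of 0.05, 0 had an unadjusted p under 0.05, and 0 of the 6 members passed. Runx1 itself did not separate the labels: it read from 9.15 in WT 1 to 10.27 in WT 3, and both labels had their lower values in arrays 1 and 4. For that reason the text below speaks of arrays labelled WT or Runx1f/f. The equal means also make Runx1f/f 1 and 2 mirror images about the gene's mean, likewise 3 and 4, so that the Runx1f/f columns carry only 1 free difference in each of these pairs. The contrast of arrays 2 and 3 with 1 and 4 was first noticed in these same data as their leading pattern. It is given here as a description without a test. Whether each column holds the sample it is labelled with could not be settled. If the labelled samples are put in order of the source numbers in their labels, each run of 4 reads WT, Runx1f/f, Runx1f/f, WT, so columns filed in that order would turn this contrast into the genotype comparison. That was not tested, no column was reassigned, and no contrast below is to be read as a genotype effect or as free of one.

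Smooth muscle contracts when myosin light chain kinase phosphorylates the light chains of myosin, which then pulls on actin filaments dressed with tropomyosin, caldesmon and calponin. Many genes of this apparatus are switched on by serum response factor (SRF), which binds CArG boxes together with the coactivators myocardin or the myocardin-related factors (MRTF). Several are not exclusive to smooth muscle: Acta2, Tagln, Cald1 and Mylk are also expressed in myofibroblasts, pericytes or cultured precursor cells, and embryonic and regenerating skeletal muscle makes Acta2 before its sarcomeric actins take over. Myh11 and Cnn1 are held to mark differentiated smooth muscle more narrowly.

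Of the 6 genes, 4 were found in a RefSeq promoter table of build GRCm38.p6: Acta2, Cnn1, Mylk and Cald1, the last with a pair of start sites. The 250 bases before each of these 5 starts were searched on both strands. A CArG box is a pair of C, then 6 positions of A or T, then a pair of G; no window of a member held one in this strict form, against 1.47% of 32851 promoter windows. With 1 of the 6 inner positions allowed to be another base, 1 of the 5 windows matched, against 8.59% of all windows. It was that of Acta2, with matches at 84 to 75 and at 34 to 25 bases before the start. The hexamer TGTGGT, a core bound by Runx proteins, was in 1 of 5 windows and in 14% of all. It was that of Mylk, with matches at 93 to 88 and 83 to 78 bases before the start, both on the opposite strand and so reading ACCACA. The E-box CANNTG, bound by MyoD and its relatives, was in 4 of 5 windows and in 66.2% of all. The AP-1 heptamer TGANTCA, bound by c-Jun, was in 2 of 5 and in 6.75%. The windows of Acta2 and Mylk are shown because they alone held the SRF type or the Runx type match; capitals mark the relaxed CArG boxes of Acta2 and the TGTGGT matches of Mylk. The first lies at chr19:34255374-34255623 on the minus strand and the second at chr16:34784700-34784949 on the plus strand. Distances count from the starts in the promoter table, which need not be the outer ends of the genes. The gene span of Acta2 given below ends at 34255585, inside its window, and the Mylk window lies wholly within the Mylk span.
Acta2: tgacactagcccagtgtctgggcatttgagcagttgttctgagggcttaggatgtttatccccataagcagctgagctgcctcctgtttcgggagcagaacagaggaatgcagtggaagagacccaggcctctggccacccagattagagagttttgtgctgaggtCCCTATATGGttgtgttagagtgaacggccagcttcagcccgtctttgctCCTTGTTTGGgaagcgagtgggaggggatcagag
Mylk: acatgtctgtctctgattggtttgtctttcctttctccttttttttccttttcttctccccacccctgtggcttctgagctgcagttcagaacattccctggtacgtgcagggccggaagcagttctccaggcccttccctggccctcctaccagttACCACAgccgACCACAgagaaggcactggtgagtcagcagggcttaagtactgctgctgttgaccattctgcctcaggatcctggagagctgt
A match is a run of letters and not a shown binding site, and no match says only that these letters are not in this window.

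Values are log2 intensities after robust multi-array averaging (RMA), a scale on which a difference of 1 is a doubling, and the SD is taken over arrays. Probe sets differ in brightness, so levels are compared between arrays and never between genes.

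Acta2 (chr19:34240336-34255585, GRCm38.p6) encodes the smooth muscle alpha actin that forms the thin filament. Arrays 1 to 4 labelled WT read 11.89, 11.63, 11.52 and 11.76, and those labelled Runx1f/f read 11.49, 11.91, 11.68 and 11.72. The signal was thus bright throughout, with 99.6% of gene means at or below its mean of 11.70 ± 0.15 (SD, n = 8), and its highest and lowest arrays were 1.34-fold apart. Runx1f/f 2 was the highest array and Runx1f/f 1 the lowest. These columns mirror each other about the gene's mean, so both extremes reflect the same free difference. The widest step between neighbouring arrays was 0.13, below the SD.

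Tagln (chr9:45929628-45936058), transgelin or SM22 alpha, encodes a calponin-related protein that binds and bundles actin. It was the most variable of the 6: arrays labelled WT read 7.10, 5.60, 5.86 and 6.78, and arrays labelled Runx1f/f read 6.08, 6.59, 6.40 and 6.27. Its SD over the 8 arrays was 0.49, and 98.2% of genes had an SD at or below that. WT 1 was the highest array and WT 2 the lowest, 2.83-fold apart. All 4 Runx1f/f arrays lay between the upper pair WT 1 and 4 and the lower pair WT 2 and 3.

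Cald1 (chr6:34598495-34775469), caldesmon, encodes a protein that lies along the actin filament and restrains myosin. The arrays labelled WT read 9.50, 8.84, 8.98 and 9.41, and those labelled Runx1f/f read 9.10, 9.26, 9.31 and 9.06. The order at both ends was that of Tagln: WT 1 and then WT 4 were highest, WT 3 and then WT 2 lowest, and the Runx1f/f arrays fell between them. The span was smaller, 1.58-fold, with an SD of 0.22 that 90.9% of genes did not exceed.

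Cnn1 (chr9:22099221-22109221), calponin 1, encodes an actin-binding inhibitor of the myosin ATPase. Its readings were low and nearly flat, at 3.47, 3.59, 3.57 and 3.64 in arrays labelled WT and 3.63, 3.50, 3.55 and 3.58 in arrays labelled Runx1f/f. The SD was 0.06 and no step between neighbouring arrays was above 0.06.

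Myh11 (chr16:14194527-14292188) encodes the smooth muscle myosin heavy chain, the motor of the thick filament. It behaved like Cnn1, at 3.56, 3.49, 3.39 and 3.43 in arrays labelled WT and 3.45, 3.49, 3.44 and 3.50 in arrays labelled Runx1f/f. The highest and lowest arrays were 1.12-fold apart. Cnn1 and Myh11 were the 2 members below 4 on all 8 arrays, as were 38.9% of all genes. No detection call was used here, so whether these readings exceed background was not tested.

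Mylk (chr16:34745199-35002436) encodes the myosin light chain kinase of smooth muscle and other cells. Arrays labelled WT read 4.06, 4.12, 3.86 and 4.28, and arrays labelled Runx1f/f read 4.16, 4.00, 3.97 and 4.19. WT 4 was the highest and WT 3 the lowest, 1.34-fold apart. Replicate 4 was the top array of each label, and replicate 3 was the bottom array of each.

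**Figure D1:**
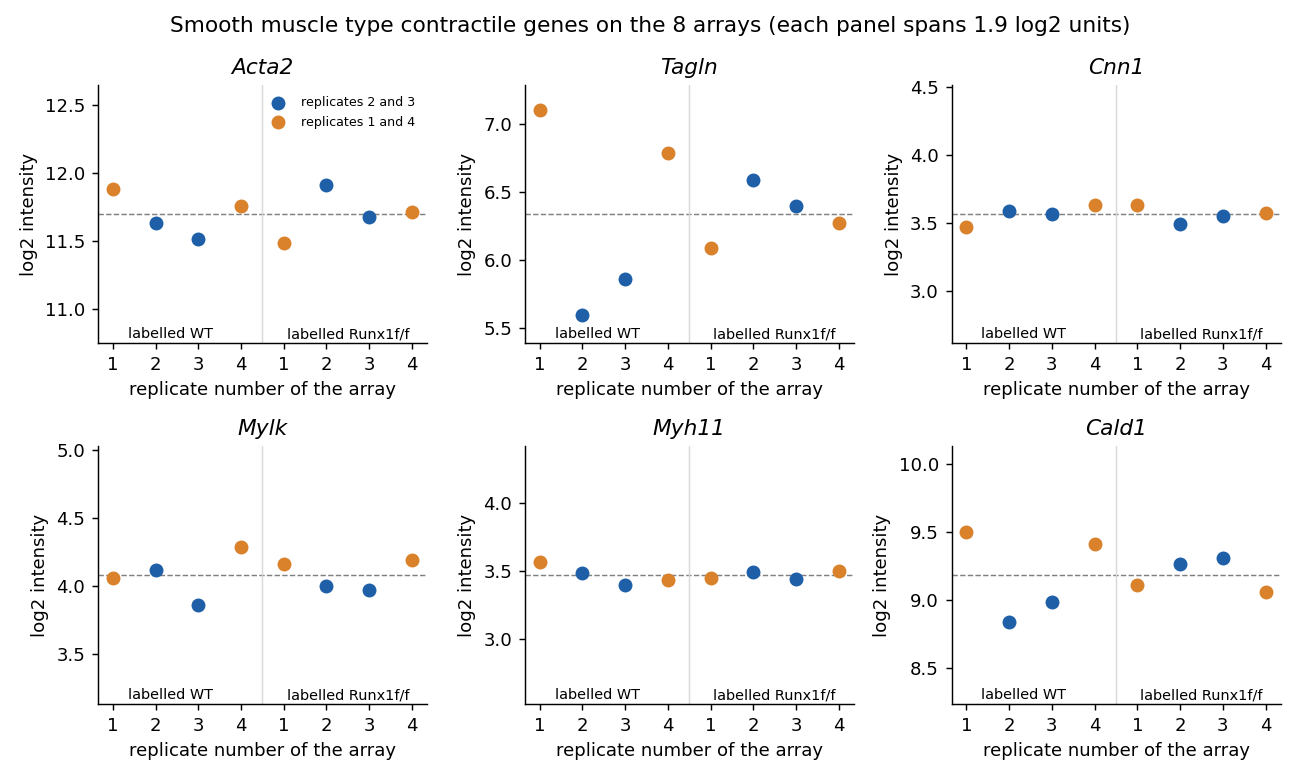
Log2 intensity (y axis) of the 6 genes on each of the 8 arrays (x axis, replicate numbers within the 2 labels); points are single arrays, blue for replicates 2 and 3 and orange for replicates 1 and 4, and the dashed line is the mean of the 8. Every panel spans the same number of log2 units, so that the spread of Tagln from 5.60 to 7.10 can be set beside the nearly flat Cnn1 and Myh11.

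In none of the 6 genes did the 4 arrays of replicates 2 and 3 stand wholly apart from the 4 of replicates 1 and 4. Over all genes, 9.87% had those arrays wholly above and 10.5% wholly below, 20.4% in all. The means over arrays 2 and 3 were lower than over arrays 1 and 4 by small amounts, and none of the 6 differed by 1.5-fold, which 2.32% of genes did upward and 0.838% downward, 3.15% in all. Tagln averaged 6.11 ± 0.46 (SD, n = 4) in replicates 2 and 3 and 6.56 ± 0.47 (SD, n = 4) in replicates 1 and 4, a difference of -0.45 that is within either SD. For Cald1 the difference was -0.17, for Acta2 -0.03, for Cnn1 -0.03 and for Myh11 -0.03. Single arrays moved these values: that of Tagln was -0.27 when WT 1 was left out and -0.61 when Runx1f/f 1 or 2 was, and that of Cald1 was -0.08 without WT 2, -0.09 without WT 1 and -0.24 without Runx1f/f 3 or 4. Acta2 had no stable sign, at 0.03 without WT 1 or WT 3 and -0.10 without Runx1f/f 1 or 2, while Cnn1 and Myh11 stayed between -0.06 and -0.01 with any array left out. Mylk, at -0.19, came nearest to a separation: 3.99 ± 0.11 (SD, n = 4) against 4.17 ± 0.09 (SD, n = 4). Only the order of WT 1 at 4.06 and WT 2 at 4.12 broke it, and without either of these arrays the Mylk groups no longer overlapped. The median difference of the 6 was -0.10, beside -0.01 over all genes.

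The small averages of Tagln and Cald1 hid differences of opposite sign in the labels. Among arrays labelled WT, Tagln was 2.32-fold lower in replicates 2 and 3, at 5.73 against 6.94. Among arrays labelled Runx1f/f the order turned, with Runx1f/f 2 above 1 by 0.50 and Runx1f/f 3 above 4 by 0.12. Cald1 did the same: it was 1.46-fold lower in WT 2 and 3, at 8.91 against 9.45, whereas Runx1f/f 2 was above 1 by 0.15 and 3 above 4 by 0.25. Acta2 was 1.19-fold lower in WT 2 and 3, but its Runx1f/f pairs differed in sign, by 0.43 for 2 minus 1 and by -0.04 for 3 minus 4. Mylk had a similar mean difference in all column sets, at -0.18 among WT arrays and -0.17 and -0.22 in the Runx1f/f pairs. The WT arrays were uneven, though, with 0.06 for WT 2 minus 1 and -0.43 for WT 3 minus 4. Cnn1 and Myh11 differed by at most 0.14 in any column set.

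Counted over the members, 3 of 6 (Acta2, Tagln and Cald1) had WT 2 and 3 wholly below WT 1 and 4, beside 23.3% of all genes, and 0 had them above, beside 24.5%. In the Runx1f/f arrays, 2 of 6 (Tagln and Cald1) had replicates 2 and 3 above, beside 25% of genes, and 2 of 6 (Cnn1 and Mylk) below, beside 33.3%. Because both Runx1f/f pairs are mirrored about the same mean, this takes only the same sign in both pairs, whatever its size. It is therefore a weaker measure than the WT count. Lower in WT and higher in Runx1f/f together held for Tagln and Cald1, 2 of 6, and for 3.5% of all genes.

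Whether the contrast differed between the labels was tested with limma over all 19938 genes, with a term for each column set of equal means. In 35 genes (0.176%) the adjusted p was under 0.05, and 0 of the 6 members were among them. The contrast was more positive in Runx1f/f arrays in 26 of these genes (0.13%) and more negative in 9 (0.0451%). Tagln came closest: its contrast was 1.52 ± 0.21 (SE) more positive in Runx1f/f than in WT arrays, with a limma adjusted p = 0.0656. For Cald1 the difference was 0.75 ± 0.12 (SE), adjusted p = 0.0827, and for Acta2 0.44 ± 0.17 (SE), adjusted p = 0.456. The value of Acta2 was 0.21 without Runx1f/f 1 or 2 and 0.67 without Runx1f/f 3 or 4. These 3 had an unadjusted p under 0.05, as did 9.58% of all genes. Cnn1, Mylk and Myh11 differed by -0.11, -0.01 and 0.05, with standard errors of 0.12, 0.16 and 0.12. Over 14 other settings the adjusted p of Tagln ran from 0.0279 to 0.281 and that of Cald1 from 0.0266 to 0.290, and 3 and 2 of these settings respectively put them under 0.05. All arrays labelled WT form 1 column set, so label and column set cannot be told apart in this test.

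**Figure D2:**
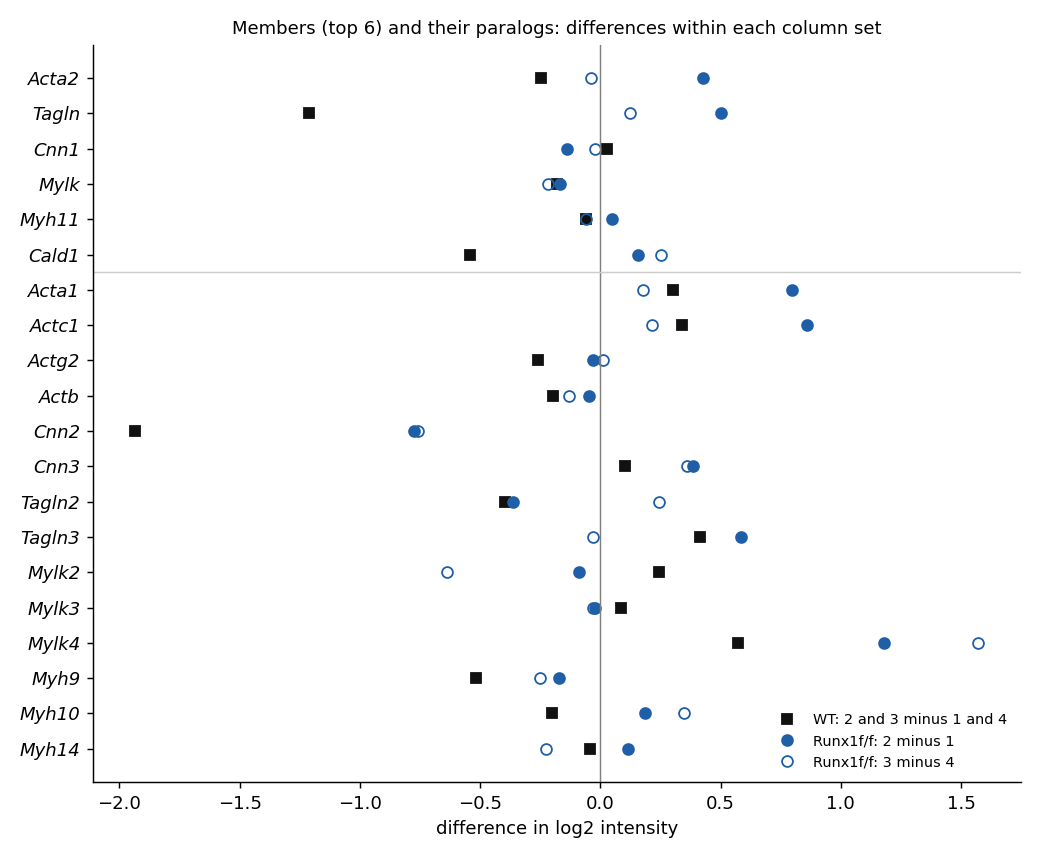
Differences in log2 intensity (x axis) for the 6 members above the grey line and 14 paralogs below it: squares are WT replicates 2 and 3 minus 1 and 4, filled circles Runx1f/f 2 minus 1 and open circles Runx1f/f 3 minus 4. Tagln, Cald1 and the paralog Myh10 have their square left of 0 and both circles right of it, while the 3 marks of Cnn2 all lie left of 0.

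The genes whose pattern lay nearest to Tagln were found by the root mean square distance between gene-centred log2 values over the 8 arrays. Nearest were Lrp1, a large endocytic receptor, at 0.10, Npnt, the integrin ligand nephronectin, at 0.12, and Eola1 at 0.13, whereas a flat gene lies 0.46 from Tagln. Lrp1 read 8.91, 7.27, 7.69 and 8.72 in arrays labelled WT and 8.05, 8.25, 8.26 and 8.04 in arrays labelled Runx1f/f. Npnt read 10.55, 9.31, 9.61 and 10.23, then 9.73, 10.13, 10.11 and 9.74. All 3 thus had WT 1 and 4 high, WT 2 and 3 low and the Runx1f/f arrays between. Among the other members Cald1 was nearest to Tagln, at 0.26 and place 119 among all genes, and Acta2 followed at 0.36 and place 718.

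**Figure D3:**
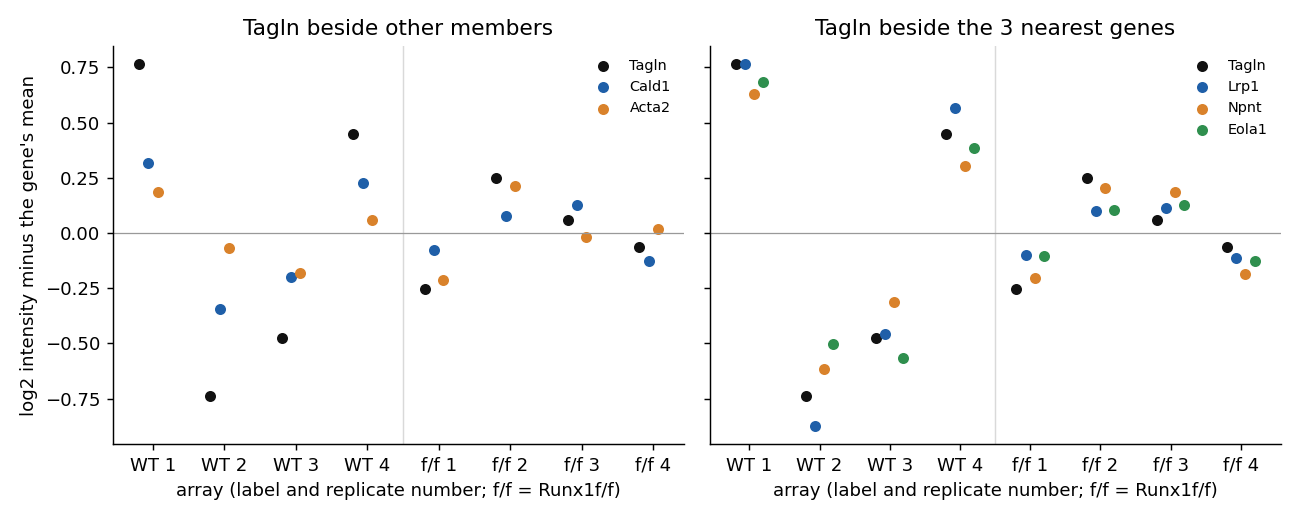
Log2 intensity minus the gene's own mean (y axis) on each array (x axis), for Tagln with Cald1 and Acta2 (left) and for Tagln with Lrp1, Npnt and Eola1 (right); points are single arrays. WT 1 and WT 4 lie above 0 and WT 2 and WT 3 below it for all genes shown, and the Runx1f/f arrays stay closer to 0 than the WT arrays except in Acta2.

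The closest relatives of the members are sarcomeric or non-muscle forms of the same proteins, and 14 of 15 listed paralogs had a probe set with a single symbol. Of these, 3 had all arrays of replicates 2 and 3 above those of 1 and 4, and 3 had them below, where the members had 0 and 0 and all genes 9.87% and 10.5%. The 3 above were the sarcomeric actins Acta1, higher by 0.39, and Actc1, higher by 0.44, and the kinase Mylk4, higher by 0.97. The 3 below were the cytoplasmic actin Actb with -0.14, the non-muscle myosin heavy chain Myh9 with -0.36, and Cnn2, calponin 2, with -1.35.

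Within the actins, Acta2 had the array order of Acta1 in the Runx1f/f pair 1 and 2 but not in the pair 3 and 4 or the WT arrays. Runx1f/f 3 minus 4 was 0.18 for Acta1 and -0.04 for Acta2. Acta1 read 12.20 and 13.00 in Runx1f/f 1 and 2, the mirrored pair that also held the lowest and highest Acta2 values. In arrays labelled WT, Acta1 read 12.54, 12.72, 12.78 and 12.36, so that WT 2 and 3 were its upper pair and the lower pair of Acta2. The smooth muscle gamma actin Actg2 read from 4.05 in WT 3 to 4.46 in WT 1, and its contrast of -0.14 came with overlapping arrays. Actin genes are close in coding sequence, and how far their probes share signal was not tested.

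Within the calponins and transgelins, Cnn2 had the widest contrast. It read 9.94, 8.17, 8.04 and 10.14 in arrays labelled WT and 9.46, 8.68, 8.69 and 9.45 in arrays labelled Runx1f/f, so that replicates 2 and 3 were lower in both. Its contrast, -1.93 in WT arrays, was -0.77 in Runx1f/f arrays. This difference of 1.17 ± 0.13 (SE) passed the limma test, adjusted p = 0.0422. The call did not hold when Runx1f/f 3 or Runx1f/f 4 was left out. Cnn3, calponin 3, was higher by 0.24 in replicates 2 and 3 with overlapping arrays. Tagln2 differed by -0.23 and Tagln3 by 0.35, both with overlap. Among the kinases, Mylk2, of skeletal muscle, differed by -0.06, and Mylk3, of heart, by 0.03. The non-muscle heavy chains Myh10 and Myh14 differed by 0.03 and -0.05. As in Tagln, the small average of Myh10 hid opposite signs, at -0.20 among WT and 0.27 among Runx1f/f arrays. Of the 14 paralogs, 1, Myh10, was lower in WT and higher in Runx1f/f without overlap, beside 3.5% of all genes.

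A wider list of genes tied to smooth muscle had 26 of 29 measured. It is not limited to the contractile apparatus and also takes in integrins, ion channels and the integrin ligand Npnt. All arrays of replicates 2 and 3 were above in 7 and below in 3, beside 9.87% and 10.5% of all genes, and 8 stayed below 4 on every array, beside 38.9%. The median difference was -0.01, equal to that of all genes at this precision. Smtnl2, a smoothelin-like protein, read 4.55, 7.60, 8.18 and 4.14 in arrays labelled WT and 4.95, 7.29, 7.58 and 4.65 in arrays labelled Runx1f/f. Pgm5, a protein of adherens junctions and costameres, was higher by 0.99 in replicates 2 and 3, and Ppp1r12b, a targeting subunit of myosin phosphatase, by 0.87. Myl9, the regulatory light chain that Mylk phosphorylates, went the other way: it read 8.96, 7.63, 7.90 and 9.30 in arrays labelled WT and 9.00, 7.90, 8.03 and 8.87 in arrays labelled Runx1f/f, a contrast of -1.17. The opposite signs of Tagln in the labels were shared in this list by Csrp1, Csrp2 and Npnt.

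Among regulators of these genes, 28 of 30 listed were measured, 6 with all arrays of replicates 2 and 3 above and 3 below, beside the same 9.87% and 10.5% of all genes, and a median difference of 0.00. Myocd, the coactivator myocardin, stayed between 3.42 and 3.50. Srf read 7.42, 7.21, 6.99 and 7.47 in arrays labelled WT and 7.38, 7.17, 7.16 and 7.39 in arrays labelled Runx1f/f, and was thus lower by 0.28 in replicates 2 and 3 with no overlap. Its coactivators Mrtfa and Mrtfb differed by -0.12 and -0.13 with overlapping arrays. Klf5, a zinc finger factor active in immature smooth muscle, was higher by 0.71 without overlap. Tgfb1, a growth factor that induces Acta2 and Tagln in many cells, read 6.89, 5.39, 5.61 and 6.09 in arrays labelled WT and 5.79, 6.20, 6.12 and 5.88 in arrays labelled Runx1f/f, so that it too changed sign between the labels.

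The list of cytoskeletal and early targets of SRF and MRTF leaned downward in replicates 2 and 3. Of 25 measured, 13 had all arrays below and 3 above, beside 10.5% and 9.87% of all genes, and the median difference was -0.22. The crosslinker Flna was lower by 0.47, the actinin Actn1 by 0.48 and the tropomyosin Tpm4 by 0.46, and these 3 were picked after their values were seen. Ccn1, a matricellular protein, was lower by 0.96. Egr1, an early growth response factor, was higher by 0.93, and Fhl1, a LIM protein abundant in skeletal muscle, by 0.64. The members, which are classical SRF targets, gave 0 of 6 in either direction. The opposite signs of Tagln in the labels were shared by 2 of the 25, Myl12a and Tgfb1, beside 3.5% of all genes.

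**Figure D4:**
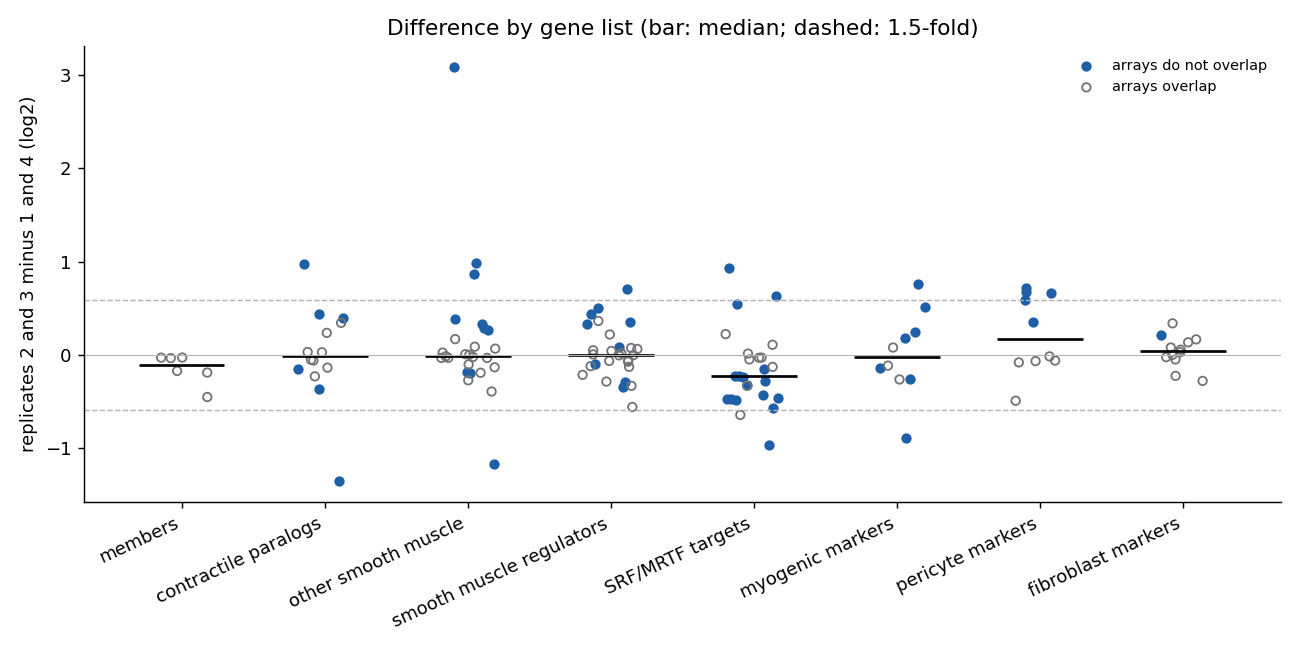
Difference in log2 intensity between replicates 2 and 3 and replicates 1 and 4 (y axis) for the genes of 8 lists (x axis); each point is a gene, filled where the 4 arrays of each side do not overlap, bars are list medians and dashed lines mark 1.5-fold. All 6 members are open points within the dashed lines, while Cnn2 at -1.35, Myl9 at -1.17 and Smtnl2 at 3.09 lie outside them.

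Markers were read beside these values to see what else the cultures held, and their counts stand beside the shares of all genes given above, 9.87% above, 10.5% below and 38.9% under 4 on every array. All 10 myogenic markers were measured, 4 with all arrays of replicates 2 and 3 above and 3 below, and 0 stayed below 4 on every array. Their summed linear intensity was 18318 to 20974 in replicates 2 and 3 and 16731 to 18572 in replicates 1 and 4. Myog, which drives differentiation, was higher by 0.76 in replicates 2 and 3, and Myf5, of undifferentiated myoblasts, differed by -0.89. Of 10 pericyte markers, 5 had all arrays of replicates 2 and 3 above and 0 below, among them Cspg4 with 0.72, Abcc9 with 0.68, Mcam with 0.66 and Pdgfrb with 0.59. Pdgfrb was dim, with means of 4.09 in replicates 2 and 3 and 3.50 in replicates 1 and 4. Whether its readings exceed background was not tested. Rgs5, a regulator of G protein signalling, read a mean of 8.51 and went the other way, with -0.49, overlapping arrays and 1.79-fold lower values in WT 2 and 3. Kcnj8, Anpep, Ndufa4l2 and Higd1b stayed below 4, and the summed level of the list overlapped, at 659.2 to 906.6 and 615.5 to 821.5.

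Of 12 measured fibroblast markers, 7 stayed below 4 on every array, Dcn, Lum and Pdgfra among them, and 1, Cd34, had replicates 2 and 3 above. Postn, the matrix protein periostin, differed by 0.34 with overlap. Their summed level, 1127 to 1744 in replicates 2 and 3 and 1275 to 2004 in replicates 1 and 4, was highest in WT 1 and lowest in WT 2, as Tagln and Cald1 were. That order was the order of Col1a2, a collagen chain that gave most of the sum, and not of the list: Col3a1, the next largest term, was highest in Runx1f/f 3 at 9.21 and lowest in Runx1f/f 4 at 8.60. Col1a2 read 10.39, 9.13, 9.64 and 9.92 in arrays labelled WT and 9.76, 9.78, 9.98 and 9.56 in arrays labelled Runx1f/f, with the signs of Tagln. All 7 endothelial markers stayed below 4, 2 of them with replicates 2 and 3 above and 3 below; the adhesion protein Pecam1 differed by -0.19 and the receptor Tek by -0.14. Of 7 leukocyte markers 6 stayed below 4, Ptprc among them, and 1 had replicates 2 and 3 above, Csf1r, the receptor of macrophage growth factor, by 0.08; the lysosomal protein Cd68 differed by 0.13 with overlap. The summed level was 77.9 to 79.3 in replicates 2 and 3 and 80.4 to 81.6 in replicates 1 and 4 for the endothelial list, and 89.2 to 94.8 and 87.1 to 91.8 for the leukocyte list. In bulk RNA, fewer cells of a type and less RNA per cell cannot be told apart, and what part these markers had in the values of the members was not tested.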

How the data were processed

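The authors' deposited table holds log2 intensities, 1 per probe set and array; RMA and Partek are named without versions in the submitters' processing notes, and each array took 200 ng of total RNA, per the labels' protocols. RMA subtracts background, puts all arrays on 1 distribution and combines the probes of a set. No label records the step that made the column set means equal. Array medians were 4.39 to 4.41, correlations between arrays 0.9879 to 0.9972, and the number of arrays limits the precision. Nothing in the labels ties replicates to separate animals, so p-values measure only the spread between these samples.

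Of 35399 rows, 21789 had 1 gene symbol; each gene kept its probe set with the highest mean, with no dim filter. Tests used limma 3.58.1 in R 4.3.3 (lmFit, eBayes, two-sided, Benjamini-Hochberg over all genes, threshold 0.05), checked on simulated data. The members, lists and contrasts were chosen with earlier results of these data known. Named are all members and paralogs, and from each other list up to 4 genes without overlap and over 1.5-fold, or else the 2 largest differences, Runx1, and the 3 genes nearest to a member whose range exceeds 1; others were chosen after their values were seen. Same-numbered arrays of the labels deviated together, with correlations of 0.39, 0.46, 0.60 and 0.57. The best match had another number for WT 1 (Runx1f/f 4), WT 4 (Runx1f/f 1), Runx1f/f 1 (WT 4) and Runx1f/f 2 (WT 3). It had the same number for WT 2, WT 3, Runx1f/f 3 and Runx1f/f 4. The labels state no pairing, and these correlations share the leading contrast. Alternatives were other scalings, probe set rules, variance models, blocks and each array left out.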

Additional observations from a re-analysis of the deposited data

Results flagged for a closer look

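The contrast of replicates 2 and 3 with 1 and 4 differed between the labels in 2 of the genes named, by limma with Benjamini-Hochberg adjustment. For Cnn2, calponin 2, it was 1.17 ± 0.13 (SE) more positive in Runx1f/f than in WT arrays, adjusted p = 0.0422, with replicates 2 and 3 lower in both labels. For Eola1, the third of the genes nearest to Tagln, it was 1.30 ± 0.15 (SE) more positive, adjusted p = 0.0437. Eola1 was named for a pattern that changes sign between the labels, so its difference is not independent of that choice. Neither the call of Cnn2 nor that of Eola1 held when Runx1f/f 3 or Runx1f/f 4 was left out. A check for single arrays apart from the rest of their label marked 1: Cnn3, calponin 3, read 10.73 in WT 4, below 10.91 in the nearest other WT array. Runx1f/f 1 and 4 read close to WT 4, at 10.68 and 10.70. The check covered 88 groups of 4 values, of which 44 are Runx1f/f groups whose mirrored values cannot be marked. About 5% of the 44 WT groups would be marked by chance.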

How the results depend on the processing

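The count of 0 genes between the labels held under each setting run; with the replicate block it was also 0, and the block changed no call of a member. As deposited, the equal column means fix that count. Centring and a second quantile normalization moved the label means little: the Tagln difference became -0.004 and 0.010. Leaving out an array shifted 1 label mean by that array's own deviation alone. The count was still 0 in each case, with up to 27 genes at an unadjusted p under 0.05. That count stays close to fixed by the columns and says nothing about genotype. The 35 genes whose contrast differed between the labels became 20 with quantile normalization applied again, 80 with a variance trend and 173 without the column set terms, which by construction counts more residual degrees of freedom than the columns hold. With 1 array left out the count ran from 0 to 84, being 7 without WT 1, 3 without WT 2, 1 without WT 3, 84 without WT 4, 21 without Runx1f/f 1 or 2, and 0 without Runx1f/f 3 or 4 (unadjusted p under 0.05 in 1750 genes). Tagln passed in that test with the trend (adjusted p = 0.0279), without the column set terms (0.0280) and without WT 4 (0.0497), and Cald1 with the trend (0.0362) and without the column set terms (0.0266). The number of members whose replicates 2 and 3 stand apart was 0 of 6, beside 20.4% of all genes. It ran from 0 to 1 with 1 array left out and was 0 within the arrays whose source numbers in the labels are 139 to 142. Within WT arrays it was 3, beside 24.5% of all genes above and 23.3% below. Within Runx1f/f arrays it was 4, beside 25% above and 33.3% below. Fewer arrays are compared within a label. The cause of the other changes was not tested. Detection values were not analysed here, so signal over background set no limit.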
